A study of Mus musculus with 14 samples.

Results

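Shared desert regions are stretches of the mouse genome, far from any protein-coding gene, where peaks of 4 to 9 blood transcription factors coincided in one progenitor line. Peaks of 13 factors that touched or overlapped were merged on the 19 autosomes and chromosome X of the mm10 (GRCm38) build. A merged region was kept if it held peaks of 4 to 9 factors, if its midpoint lay outside every protein-coding gene and if it was more than 100 kb from the nearest gene boundary. The number of factors and the distance from genes therefore chose the regions, and both are given below as description only. This left 1215 regions of 121980 in all, or 6.50% of the 18703 regions with 4 to 9 factors (exact 95% interval 6.15 to 6.86). As background, 9.7% of all merged regions lay in such gene deserts. The shared desert regions are set beside the 17488 other shared regions, which also held 4 to 9 factors but lay inside a gene or within 100 kb of one. Where stated they are set beside the 3550 of these that lay outside genes at 10 to 100 kb.

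The binding maps came from ChIP-seq with 1 library and 1 peak list for each of 13 factors, namely the ETS factors Spi1, Fli1 and Erg, the C/EBP factors Cebpa and Cebpb, Tal1, Lyl1 and Lmo2, Runx1, Gata2, Meis1, and the Gfi1 and Gfi1b proteins. All 13 libraries came from Hoxb8-FL, a multipotent blood progenitor line of the mouse held in culture by an oestrogen-dependent Hoxb8 protein and Flt3 ligand and labelled LMPP-like, that is, like lymphoid-primed multipotent progenitors. Every library shares this line, the growth medium with estradiol and FLT3, and the absence of any other treatment. A block on differentiation by Hoxb8 limits the line as a model of progenitors in marrow, and expression markers of the cell type were not measured here. Fixation lasted 10 min in 0.4% or 1% formaldehyde, and the labels do not say which of these each factor had. A rabbit IgG library belongs to the series, but it had no peak list here and was used in no step. With no replicate library, no difference below has a replicate check, and no p-value was computed. Each list gives positions of 400 bp peaks without heights or read counts, so depth is unknown. List lengths ran between 3217 and 76378 peaks.

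Gene deserts are long intervals without coding genes. In mammals they often lie beside developmental regulators and can hold enhancers that act over long distances through loops of chromatin. Enhancers are commonly bound by several transcription factors at once. In blood progenitors the ETS factors Spi1, Fli1 and Erg, the C/EBP factors, Runx1, the Tal1 and Lyl1 proteins with their bridging partner Lmo2, and Gata2 are known to meet at such elements. Meis1, a homeobox factor of stem cells and of leukaemias, and the repressors Gfi1 and Gfi1b also bind there.

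Sequence was read only where a RefSeq table held it. In 17 long non-coding RNA (lncRNA) genes the whole promoter window, 250 bases before to 50 after the transcription start (RefSeq, GRCm38.p6), lay inside a shared desert region. The 4 such windows in regions with 8 factors, and that of Morrbid, are printed because they are bound desert DNA with a known transcript start. Morrbid is a lncRNA of mouse myeloid cells known to restrain the pro-apoptotic gene Bcl2l11, and it was picked after the values were seen. Each sequence runs 5′ to 3′ on the strand of the lncRNA gene. Gm30779 is at chr6:26766846-26767145 on the minus strand. Gm31828 is at chr4:93481346-93481645 on the minus strand. Gm46116 is at chr9:61056683-61056982 on the plus strand. Gm6634 is at chr3:70807242-70807541 on the minus strand. Morrbid is at chr2:128429302-128429601 on the minus strand. Capitals mark matches, on either strand, to the Spi1 motif GAGGAAGT, the Runx motifs TGTGGT and TGCGGT, the C/EBP motif TTGCNNAA, the E-box CAGNTG of Tal1 and Lyl1, the Gata motifs AGATAA and TGATAA, the Meis motif TGACAG and the Gfi motif AAATCA. The ETS core GGAA was searched too and is left in lower case, except inside the Spi1 motif that contains it.
Gm30779: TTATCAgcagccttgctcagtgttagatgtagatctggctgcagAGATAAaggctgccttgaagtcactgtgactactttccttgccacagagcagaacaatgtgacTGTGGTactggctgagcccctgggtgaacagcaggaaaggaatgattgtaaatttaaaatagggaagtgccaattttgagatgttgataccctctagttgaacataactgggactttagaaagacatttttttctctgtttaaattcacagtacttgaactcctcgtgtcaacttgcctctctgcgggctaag
Gm31828: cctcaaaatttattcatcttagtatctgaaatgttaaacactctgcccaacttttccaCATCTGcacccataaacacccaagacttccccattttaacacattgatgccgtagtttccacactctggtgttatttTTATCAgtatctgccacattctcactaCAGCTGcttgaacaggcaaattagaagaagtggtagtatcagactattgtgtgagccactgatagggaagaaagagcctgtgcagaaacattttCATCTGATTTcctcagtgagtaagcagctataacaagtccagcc
Gm46116: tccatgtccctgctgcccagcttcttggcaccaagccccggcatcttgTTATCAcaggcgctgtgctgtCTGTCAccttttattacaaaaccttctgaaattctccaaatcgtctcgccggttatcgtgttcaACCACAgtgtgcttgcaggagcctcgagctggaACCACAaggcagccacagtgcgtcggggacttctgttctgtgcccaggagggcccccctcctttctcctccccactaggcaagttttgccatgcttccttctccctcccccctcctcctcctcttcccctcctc
Gm6634: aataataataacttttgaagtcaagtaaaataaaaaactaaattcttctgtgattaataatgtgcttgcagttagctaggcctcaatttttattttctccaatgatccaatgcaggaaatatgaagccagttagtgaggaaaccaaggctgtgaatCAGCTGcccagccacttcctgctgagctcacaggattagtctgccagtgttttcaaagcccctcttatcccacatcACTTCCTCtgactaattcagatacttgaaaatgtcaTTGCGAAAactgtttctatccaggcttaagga
Morrbid: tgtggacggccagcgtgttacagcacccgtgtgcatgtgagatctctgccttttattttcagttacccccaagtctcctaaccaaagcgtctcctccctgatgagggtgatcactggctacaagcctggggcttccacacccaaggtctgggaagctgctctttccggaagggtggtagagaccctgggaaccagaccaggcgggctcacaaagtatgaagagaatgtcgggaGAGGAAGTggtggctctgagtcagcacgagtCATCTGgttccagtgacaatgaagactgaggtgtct

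The Gm6634 window held a Spi1 motif, a C/EBP motif and an E-box, and its region had peaks of Cebpa, Cebpb, Erg, Fli1, Lmo2, Runx1, Spi1 and Tal1. The Morrbid window held a Spi1 motif and an E-box, and its region had peaks of Fli1, Lmo2, Meis1 and Spi1. In Gm31828 an E-box and a Gfi match overlapped and stand as one run of capitals, and the window held 3 E-boxes in all. The Gm31828 window also held 1 Gata match, and its region had peaks of Gfi1, Lyl1 and Tal1 but none of Gata2. Gm46116 held 2 Runx matches, 1 Meis match and 1 Gata match, and its region had a Runx1 peak but none of Meis1 or Gata2. Gm30779 held 2 Gata matches and 1 Runx match, and its region had no peak of Gata2 or Runx1. Peaks without a match occurred too. The regions of Gm30779, Gm31828 and Gm46116 had peaks of Cebpa, Cebpb and Spi1, but their windows held no C/EBP or Spi1 match. Gm30779 and Gm46116 had Tal1 and Lyl1 peaks but no E-box, and Gm30779 and Morrbid a Meis1 peak but no Meis match. Gm46116 had a Gfi1 peak without a Gfi match, and Gm6634 a Runx1 peak without a Runx match. The Spi1 motif was in 5 of the 17 windows (29.4%), against 3.20% of all 32851 promoter windows of the RefSeq table. E-boxes were in 11 of the 17 windows, against 51.4% of all windows, and Gata matches were in 7, against 18.6%. Meis matches were in 6 of the 17 windows, against 19.2% of all windows, C/EBP matches in 3, against 10.8%, and Runx matches in 3, against 22.4%. Gfi matches were in 2 of the 17 windows, against 14% of all windows, and the short ETS core was in 17, against 96.0%. All 17 are lncRNA windows. Among the 11575 lncRNA windows alone, the shares were 3.33% for Spi1, 56.6% for E-boxes, 23.7% for Gata and 20.1% for Meis. They were 11.9% for C/EBP, 23.9% for Runx, 16.9% for Gfi and 96.4% for the ETS core. A match describes letters only and is not evidence of binding at that point.

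The mix of factors in the deserts differed from that elsewhere, and Meis1 stood farthest out. Meis1 had a peak in 458 of the 1215 shared desert regions, 37.7% (35.0 to 40.5), against 20.5% (19.9 to 21.1) of the other shared regions and a background of 21.6% over all 18703. That is a difference of 17.2 percentage points and a ratio of 1.84. A difference is called here where the exact 95% intervals of the shares do not overlap, and these intervals cover counting error only. Neighbouring regions of a desert are not independent, so the intervals are narrower than the true uncertainty.

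Among the proteins that work with Lmo2, Tal1, a basic helix-loop-helix protein, had a peak in 728 shared desert regions, 59.9% (57.1 to 62.7), against 48.4% (47.6 to 49.1) of the other shared regions, with 49.1% as background. Its relative Lyl1 was in 419 shared desert regions, 34.5% (31.8 to 37.2), against 30.5% (29.8 to 31.2) of the others, with 30.7% as background. Lmo2, which does not touch DNA itself, was in 1034 shared desert regions, 85.1% (83.0 to 87.1), against 81.4% (80.8 to 81.9) of the others, with 81.6% as background. All of these were higher in the deserts, with Tal1 farther apart than the others. Over 22 alternative settings the Tal1 call ended in 1, while that of Lmo2 ended in 5, with a negative difference in 1 of them, and that of Lyl1 ended in 9. Tal1 and Lmo2 together were in 57.8% of shared desert regions, against 46.3% of the other shared regions.

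Both C/EBP factors, which drive granulocyte and monocyte genes, were common on both sides. Cebpa was in 848 shared desert regions, 69.8% (67.1 to 72.4), against 64.0% (63.3 to 64.7) of the other shared regions, with 64.4% as background, and was called higher, a call that ended in 4 of 22 alternative settings. Cebpb was in 853 shared desert regions, 70.2% (67.5 to 72.8), against 67.7% (67.0 to 68.4) of the others, with 67.8% as background, and these intervals overlapped.

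ETS factors and Runx1 were less frequent in the deserts. Runx1, a master regulator of blood formation, was in 293 shared desert regions, 24.1% (21.7 to 26.6), against 37.2% (36.5 to 38.0) of the other shared regions, with 36.4% as background. The ETS factor Erg was in 284 shared desert regions, 23.4% (21.0 to 25.9), against 31.1% (30.4 to 31.8) of the others, with 30.6% as background. Its close relative Fli1 was in 751 shared desert regions, 61.8% (59.0 to 64.6), against 69.8% (69.1 to 70.4) of the others, with 69.2% as background. Spi1 (PU.1), which is needed for myeloid and B cells, differed less than Runx1, Erg or Fli1. It was in 900 shared desert regions, 74.1% (71.5 to 76.5), against 78.7% (78.1 to 79.3) of the others, with 78.4% as background. Regions with no ETS factor at all made up 13.004% of shared desert regions and 8.69% of the other shared regions.

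Gata2, which works in stem cells and mast cells, was in only 8 shared desert regions, 0.658% (0.285 to 1.29), against 2.56% (2.33 to 2.81) of the other shared regions, with 2.44% as background. Of these 8 regions 4 held 9 factors, among them regions nearest to Ktn1, to Srbd1 and to the cell cycle gene Ccnd2. The other 4 were nearest to Agr3, Dnajc1, Thbs1 and Pard3. All 8 held Lmo2. Gfi1 was in 253 shared desert regions, 20.8% (18.6 to 23.2), against 21.5% (20.9 to 22.1) of the other shared regions, with 21.5% as background. Gfi1b was in 230 shared desert regions, 18.9% (16.8 to 21.2), against 18.7% (18.1 to 19.3) of the others, with 18.7% as background. The intervals of both repressors overlapped.

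**Figure D1:**
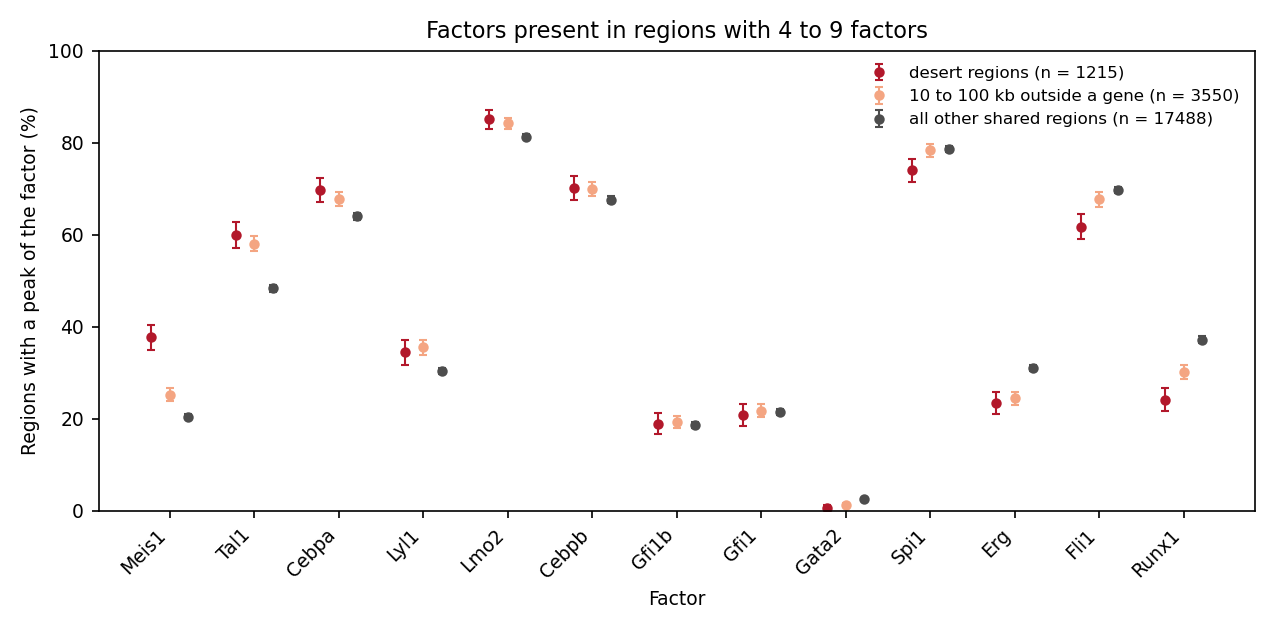
Share of regions (%) with a peak of each factor, for the 1215 shared desert regions, the 3550 other shared regions outside genes at 10 to 100 kb, and all 17488 other shared regions. Points are shares and bars exact 95% intervals, and factors are ordered by the difference between deserts and all others, with Meis1 (37.7% against 20.5%) at one end and Runx1 (24.1% against 37.2%) at the other.

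Much of this contrast was with regions at genes, and only part remained against intergenic regions nearer to genes. Beside the 3550 other shared regions at 10 to 100 kb, only Meis1 was higher in the deserts, at 37.7%, against 25.3% (23.8 to 26.7). Runx1 was lower in the deserts, at 24.1%, against 30.3% (28.8 to 31.8) at 10 to 100 kb, and so were Fli1 (61.8% against 67.7%) and Spi1 (74.1% against 78.4%). For the remaining factors the intervals overlapped, Tal1 included, at 59.9% in the deserts and 58.1% at 10 to 100 kb. Lyl1 changed sign here, with 34.5% in the deserts and 35.6% at 10 to 100 kb.

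The Meis1 difference was present at every number of factors. At each number from 4 to 9, the Meis1 share was higher in shared desert regions than in other shared regions of the same number. With 4 factors it was 28.9% (24.3 to 33.9) in 363 shared desert regions, against 13.5% (12.6 to 14.5) in the others. With 9 factors it was 58.2% (48.4 to 67.5) in 110 shared desert regions, against 38.0% (35.5 to 40.6) in the others. Tal1 and Lmo2 were also higher in the deserts at all 6 numbers, and Runx1, Erg, Fli1 and Spi1 lower at all 6, by value rather than by interval. In regions with 4 factors Runx1 was at 5.51% (3.40 to 8.38) in the deserts, against 20.5% (19.4 to 21.6) in the others. Because a factor's own peak counts towards the number, the shares were also taken with regions chosen by 4 to 9 of the other 12 factors. Meis1 then had 35.2% in the deserts, against 19.9% elsewhere, Tal1 59.1% against 47.9% and Runx1 27.8% against 36.8%.

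Shares were also taken by distance. Between the nearest and the farthest of the 3 desert classes, only Meis1 of the 13 factors had intervals that did not overlap, and narrowly so. Across the shared regions outside genes, in order of distance, the Meis1 share was 7.23% within 1 kb of a gene, 21.99% at 1 to 10 kb, 24.9% at 10 to 50 kb and 26.4% at 50 to 100 kb. It was 34.6% (31.0 to 38.4) at 100 to 200 kb, 39.3% (34.4 to 44.3) at 200 to 500 kb and 46.6% (38.7 to 54.6) beyond 500 kb, where 161 shared desert regions lay. Outside genes the Meis1 share was thus larger in each step of distance. Neighbouring intervals did not overlap between the class within 1 kb and that at 1 to 10 kb, nor across the 100 kb limit, where the share at 50 to 100 kb had an interval of 23.6 to 29.3, and the other neighbouring intervals overlapped. Runx1 took the opposite course, with 54.4% within 1 kb outside a gene, 29.7% at 50 to 100 kb, 25.4% at 100 to 200 kb, 23.7% at 200 to 500 kb and 19.9% (14.01 to 26.9) beyond 500 kb. Tal1 was high in every class beyond 1 kb, between 54.7% and 62.2%, but was in only 17.5% (15.7 to 19.4) of shared regions within 1 kb outside a gene. Inside genes, where 10267 shared regions lay, Meis1 was in 20.6%, Runx1 in 37.8% and Tal1 in 48.7%. The class within 1 kb outside a gene was therefore the lowest for Meis1 and Tal1 and the highest for Runx1. Cebpa was in 66.9% at 100 to 200 kb, 71.7% at 200 to 500 kb and 77.0% (69.7 to 83.3) beyond 500 kb. Gata2 had a peak in 0 of the 161 regions beyond 500 kb, which allows a share of up to 1.86% by the limit of 3 counts, while the exact interval reaches 2.27%.

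**Figure D2:**
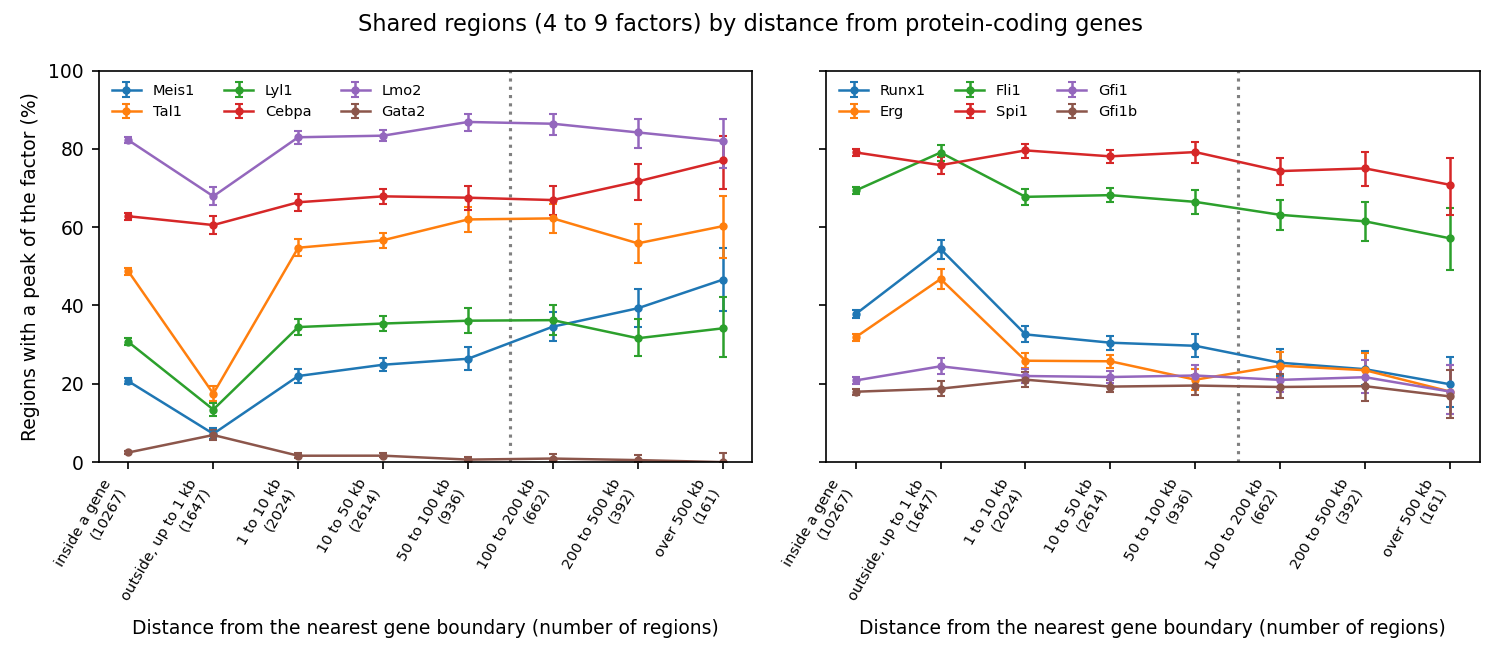
Share of shared regions (%) with a peak of each factor, by place relative to the nearest protein-coding gene, from inside a gene to over 500 kb away, for 12 factors in 2 panels (Cebpb is not drawn). Points are shares with exact 95% intervals, numbers of regions are under the axis, and the dotted line marks the 100 kb limit beyond which lie the shared desert regions. Meis1 reaches 46.6% beyond 500 kb, while Runx1 reaches 19.9%.

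Regions of 1 to 3 factors in deserts, which the rule leaves out, showed some of the same differences. Among these, Meis1 was in 13.5% of 10359 desert regions, against 7.19% of 90087 regions elsewhere, and Tal1 was in 7.72% against 4.88%. Runx1 was in 0.512% of the desert regions, against 2.55% elsewhere. Gata2 went the other way from the shared regions, at 4.89% of desert regions with 1 to 3 factors and 2.27% of those elsewhere. So did Lmo2, at 5.05% against 9.03%. Cebpa, called higher in the shared desert regions, was level here (20.3% against 20.2%), and the intervals of Lyl1 overlapped (0.338% against 0.467%). Erg, Fli1 and Spi1 were lower in deserts here too, and so were Gfi1 and Gfi1b, whose intervals had overlapped in the shared regions. Of the 539 Gata2 peaks in deserts, 500 overlapped no other list. At the other end, 259 desert regions held 10 to 13 factors. Meis1 was in 71.0% (65.1 to 76.5) of these, against 63.3% (61.4 to 65.1) of such regions elsewhere, with overlapping intervals. Erg was in 79.2%, against 85.5%, and was the only one of the 13 factors called lower there.

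The share of regions that lay in deserts varied with the number of factors in them. It was 11.3% (11.03 to 11.5) for regions with 1 factor and lay between 6.17% and 7.18% for regions with 4 to 9. For regions with 10 to 13 factors it was 9.15% (8.11 to 10.3), above the 6.50% of those with 4 to 9. Of the 41 regions with all 13 factors 5 lay in deserts, 12.2% (4.08 to 26.2).

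**Figure D3:**
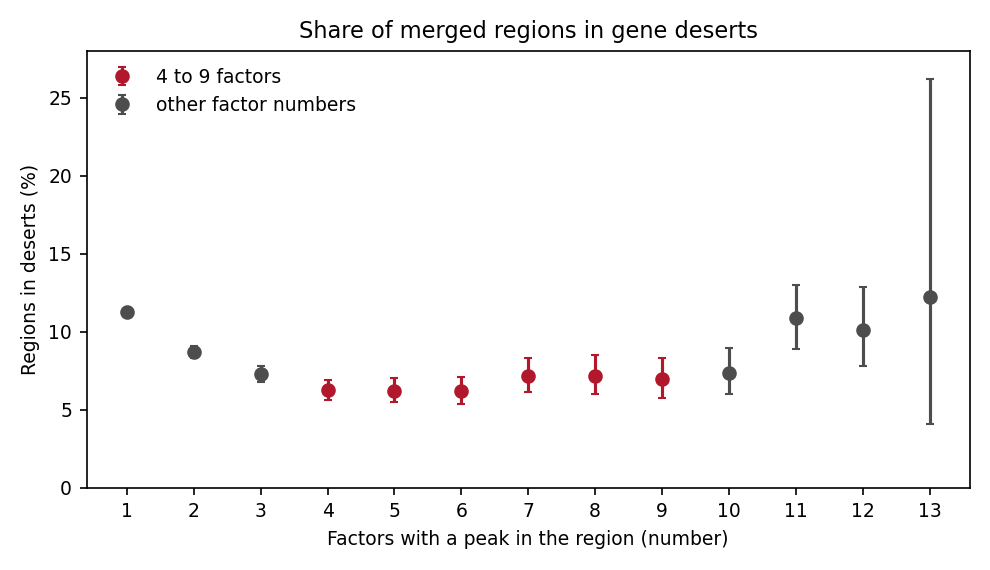
Share of merged regions that lie in gene deserts (%), by the number of factors with a peak in the region, with exact 95% intervals. Regions with 4 to 9 factors, which include the shared desert regions, lie between 6.17% and 7.18%, below the 11.3% of regions with 1 factor.

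In size and factor number the shared desert regions resembled the others. They held a median of 5 factors, as did the other shared regions, and the numbers with 4, 5, 6, 7, 8 and 9 factors were 363, 259, 187, 168, 128 and 110. Their median span was 501 bp (quartiles 465 to 554), against 505 bp for the other shared regions. The nearest gene boundary was a median of 187.7 kb away (quartiles 133 to 323 kb), 41 regions lay beyond 1000 kb, and 17 lay within 100 kb of an antigen receptor gene segment, which the gene table does not count as a protein-coding gene.

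The threshold of 100 kb is a point on a continuum. Just beyond it lay regions at 100.046 kb from Etv1, 100.2 kb from Rnf152 and 100.4 kb from Gm38457, with 5, 9 and 6 factors. Just within it, and so not counted, lay regions at 99.996 kb from Thbs1, 99.9 kb from Irf2bp2 and 99.8 kb from Mib1, with 7, 7 and 8 factors. The farthest shared desert region, chr5:59996473-59997004, lay 1812 kb from G6pd2 and held Cebpa, Cebpb, Erg, Fli1, Lmo2, Lyl1, Spi1 and Tal1.

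Within the shared desert regions, midpoints of peaks lay closest together for Cebpa and Cebpb. The median distance between midpoints was 15 bp for Cebpa and Cebpb over 756 regions, the smallest of 66 pairs (pairs with Gata2 not counted). It was 21 bp for Erg and Fli1, for Erg and Lmo2 and for Gfi1 and Gfi1b, and 22 bp for Lmo2 and Lyl1. The bridging protein Lmo2 and Tal1 lay 24 bp apart over 701 regions, Fli1 and Lmo2 25 bp, Lmo2 and Runx1 25 bp, and the relatives Lyl1 and Tal1 26 bp. Farthest apart were Cebpa and Gfi1b at 72 bp, Cebpa and Gfi1 at 70.5 bp and Cebpa and Meis1 at 70 bp. Meis1 had no partner closer than 40 bp, the highest such minimum of the 12 factors. Positions only are known, so these distances say nothing of binding in the same cell or on the same molecule.

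The regions used many combinations of factors. There were 439 distinct ones among the 1215 regions, and 257 of these occurred once. The most common, Cebpa, Cebpb, Lmo2 and Spi1, occurred in 42 shared desert regions (3.46%), against 3.49% of the other shared regions. The next, Cebpa, Cebpb, Meis1 and Spi1, occurred in 36 shared desert regions (2.96%), against 1.09% of the other shared regions. Meis1, Cebpa and Cebpb together were in 23.3% of shared desert regions, against 12.8% of the other shared regions.

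The partners of Meis1 in the deserts were compared at equal numbers of other factors. With 4 to 8 factors besides Meis1, 353 shared desert regions had a Meis1 peak and 711 had none. Erg was in 18.4% (14.5 to 22.9) of those with Meis1, against 32.1% of those without it once these were weighted to the same numbers of other factors. Gfi1 was in 26.6% (22.1 to 31.6) of regions with Meis1, against a weighted 20.2% without it, and Gfi1b was in 24.9% (20.5 to 29.8), against 17.9%. Tal1 was in 68.3% (63.1 to 73.1) of regions with Meis1, against a weighted 66.1% without it. Lmo2 was in 92.9% (89.7 to 95.4), against a weighted 89.4%, and Spi1 in 72.0% (67.0 to 76.6), against 78.6%. Runx1 was in 31.4% (26.6 to 36.6) of regions with Meis1, against a weighted 27.2% without it. The weighted values of Runx1 and Tal1 thus lay inside the intervals of the regions with Meis1. The weighted shares have no interval of their own. By unweighted shares, the intervals with and without Meis1 did not overlap for Gfi1 (26.6% against 17.9%) and Gfi1b (24.9% against 16.6%), both higher with Meis1, nor for Lmo2 (92.9% against 85.4%), Runx1 (31.4% against 20.1%) and Tal1 (68.3% against 58.2%). They overlapped for Erg (18.4% against 25.6%) and Spi1 (72.0% against 75.7%).

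The 1215 regions were gathered in a minority of deserts. A desert is here the interval between neighbouring protein-coding genes or a gene and a chromosome end, and 1520 were long enough to hold a region beyond 100 kb from both sides. Of these, 399 held at least 1 shared desert region, 26.2% of them all. In 173 there was 1 region, while 157 deserts with 3 or more held 904 regions (74.4%), and 22 deserts with 10 or more held 255. The parts of the deserts beyond 100 kb made up 709.9 Mb, with 1.71 shared desert regions per Mb, against 9.46 other shared regions per Mb in the rest of the genome. Of 204 deserts with over 1000 kb beyond that limit, 110 held none. The longest of these, 4542 kb between the protocadherin genes Pcdh20 and Pcdh9, held 15 regions with 1 to 3 factors and none with 10 or more.

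Neighbours lay close. The median gap between neighbouring shared desert regions of a desert was 29.9 kb, and 521 of 816 gaps were within 50 kb. Linked by gaps of up to 50 kb, 520 regions fell into 125 runs of 3 or more, and 443 stood alone. The longest run, between the AP-1 gene Jun and Fggy, had 11 regions over 191.6 kb and began 110.3 kb above Jun. Of these 11 regions, Fli1, Lmo2 and Spi1 were each in 9, while Meis1 was in 1 and Gfi1 in 0. Between Cd83 and Jarid2 a run of 10 regions spanned 101.7 kb. The shortest of the runs with 9 or more regions, 9 within 55.3 kb between the oxygen sensor gene Egln3 and Sptssa, had Meis1 in 6 and Runx1 in 0. Among all 1215 shared desert regions, Lmo2 was in 85.1%, Spi1 in 74.1%, Fli1 in 61.8%, Meis1 in 37.7%, Runx1 in 24.1% and Gfi1 in 20.8%. No factor had intervals that failed to overlap between regions in runs and regions alone.

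The 10 richest deserts were described one by one, without a comparison of their flanking genes with those of other deserts. For scale, among all 1215 shared desert regions Lmo2 was in 85.1%, Spi1 in 74.1%, Cebpa in 69.8%, Tal1 in 59.9% and Meis1 in 37.7%. Lyl1 was in 34.5% of the 1215, Erg in 23.4%, Gfi1 in 20.8% and Gfi1b in 18.9%. Regions with 8 factors were 10.5% of them and regions with 9 factors 9.05%. Counts in single deserts near these shares are no trait of the desert. The desert with the most, 17 regions, ran from Cd83, a surface protein of activated dendritic and B cells, to Jarid2, a partner of Polycomb repressive complexes. Its regions held up to 9 factors, 5 of them had 8 or 9, and Cebpa was in 15 and Meis1 in 3. The interval from Nmbr, a neuropeptide receptor gene, to Cited2, a co-regulator needed by mouse blood stem cells, held 15 regions over 2952 kb, the last of them 109.7 kb below Cited2. Meis1 was in 7 of these 15.

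The interval from Thap1 to Zfp703, genes of zinc-binding nuclear proteins, held 14 regions and is given for its counts of repressors. Gfi1 was in 7 of the 14, Gfi1b in 8 and Meis1 in 8, while Erg was in 0. Between Sdk2, an adhesion molecule gene, and Rpl38, a ribosomal protein gene, lay 13 regions within 600.8 kb, all 13 with Lmo2. Between Pard3, a cell polarity gene, and Nrp1, a co-receptor for semaphorins and VEGF, lay 13 regions with Spi1 in 12 and Meis1 in 2. The 13 regions between Zeb2, a zinc finger repressor needed for blood cell differentiation, and Acvr2a, an activin receptor gene, all lay on the Zeb2 side, with the last 2267 kb from Acvr2a.

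The Jun to Fggy desert had 12 regions, at 39.3 per Mb the densest of the 10 richest. From Gadd45g, a stress response gene, to Diras2 lay 11 regions, in which Tal1 was in 10, Erg and Lyl1 in 8 each and Cebpa in only 3. Between the adhesion receptor genes Adgrl2 and Adgrl4 lay 11 regions, with Cebpa in 10 and Meis1 in 7. Counts this small carry wide intervals, and the deserts were named because they had the most regions.

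**Figure D4:**
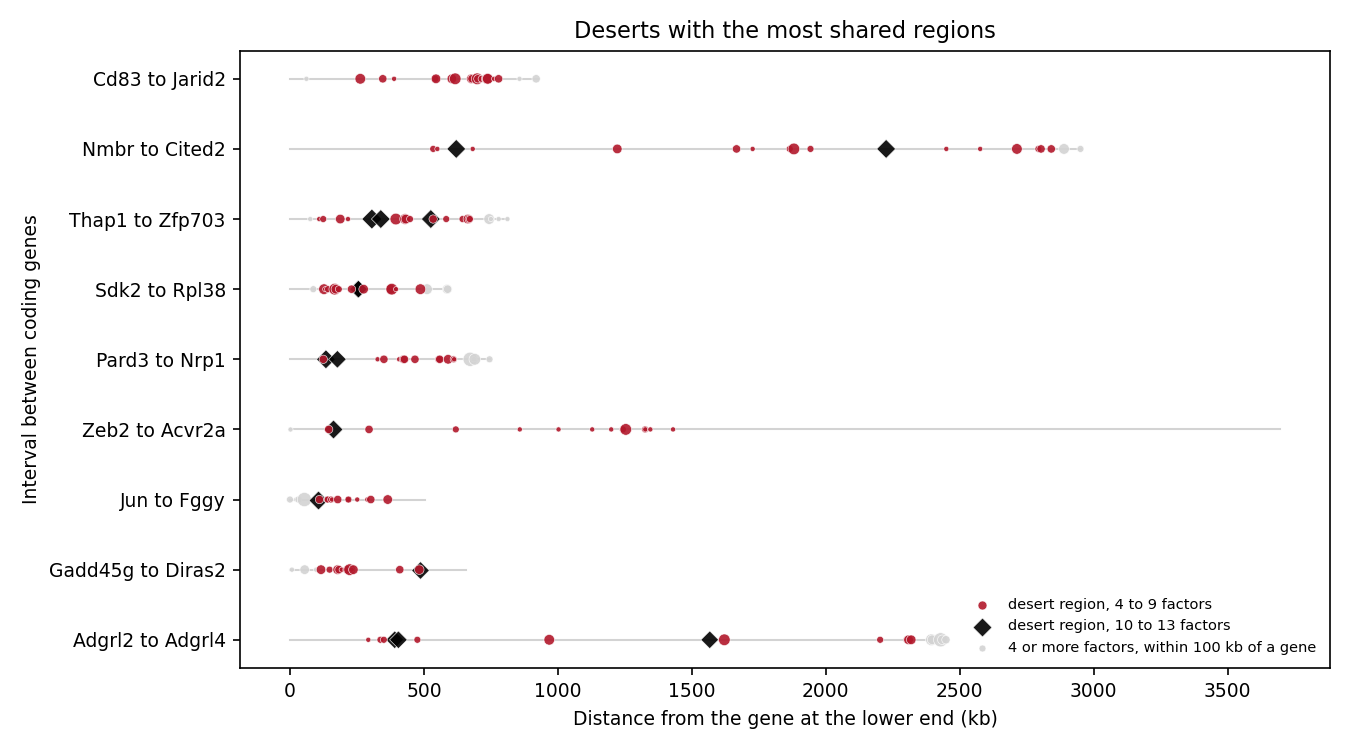
Positions of shared desert regions in 9 of the 10 deserts with the most of them, as distance (kb) from the gene at the lower end. Each grey line is the interval between the named coding genes, red circles are regions with 4 to 9 factors, black diamonds desert regions with 10 to 13 factors and grey circles regions with 4 or more factors within 100 kb of a gene, and larger symbols hold more factors. The 13 regions between Zeb2 and Acvr2a lie on the Zeb2 side, and the 12 between Jun and Fggy lie close together.

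**Figure D5:**
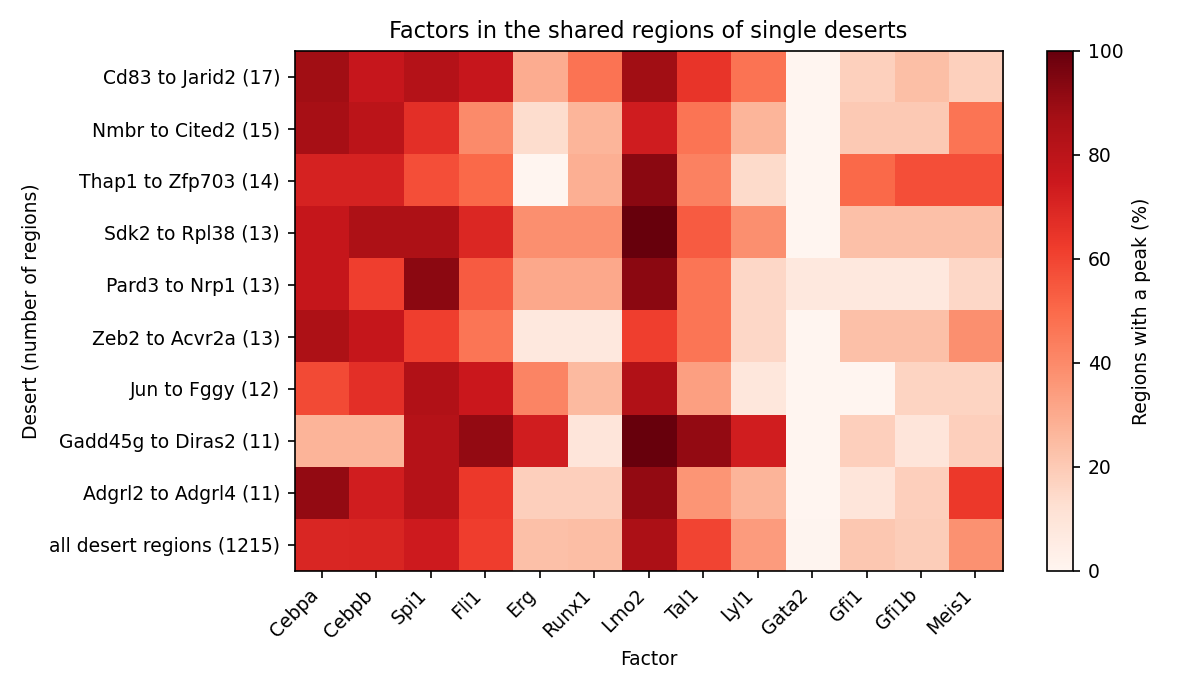
Share of shared desert regions (%) with a peak of each factor in 9 of the 10 richest deserts, with the number of regions in parentheses, above the share over all 1215 regions in the bottom row. Darker red is a larger share. Gadd45g to Diras2 is pale for Cebpa (3 of 11) and dark for Tal1 (10 of 11), and Thap1 to Zfp703 has no Erg.

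The 10 regions with 9 factors and the smallest span were picked by that span. Every peak was 400 bp wide, so no region could span less, and spans outside deserts at 9 factors were not compared. The smallest region, chr5:119321693-119322121, held 9 peaks within 429 bp at 348.6 kb from Tbx3, a T-box gene, and lacked Meis1, Gata2 and both Gfi proteins. The same 9 factors, Cebpa, Cebpb, Erg, Fli1, Lmo2, Lyl1, Runx1, Spi1 and Tal1, met at chr13:44501766-44502232 and chr13:44419808-44420277, 228.8 and 310.7 kb from Jarid2. The region chr1:128712772-128713233 lay 120.7 kb from Cxcr4, the chemokine receptor that holds stem cells in the marrow, and held Meis1 in place of Lyl1. The other 6 lay nearest to Ankrd50, Tshz1, Sptssa, Mreg, Thap1 and Ccdc54. Both C/EBP factors were missing at chr3:38094328-38094773, 354.7 kb from Ankrd50, and at chr18:83740476-83740923, 270.9 kb from Tshz1, where both Gfi proteins were present. The region chr12:54448259-54448708 lay 196.9 kb from Sptssa with both Gfi proteins, Meis1 and Cebpa, and without Cebpb, Lyl1 and Runx1. The region chr1:71956887-71957344 lay 202.1 kb from Mreg and lacked Gfi1b, Meis1 and Runx1. The region chr8:26559244-26559702, 395.3 kb from Thap1, had neither Erg nor Spi1, and chr16:50700020-50700480, 109.1 kb from Ccdc54, lacked Cebpa and both Gfi proteins. None of the 10 held Gata2, and all 10 held Fli1, Lmo2 and Tal1, which is near the counts over all 110 shared desert regions with 9 factors, where Tal1 was in 110, Lmo2 in 109, Fli1 in 103 and Gata2 in 4.

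Genes of the blood system were the nearest coding gene more often than for other shared regions. A gene of 9 blood lists, 198 genes in all, was the nearest to 144 shared desert regions, 11.9% (10.1 to 13.8), against 2.94% (2.69 to 3.20) of the other shared regions and a background of 3.52%. Among the other shared regions outside genes it was 3.92%. The contrast was not particular to blood lists. Neuron genes were the nearest to 12 of the 1215 shared desert regions and to 24 of the 17488 other shared regions. Patterning genes were the nearest to 12 and 28, liver genes to 1 and 7, and muscle genes to 0 and 6. Nor did it hold for each blood list, since B cell genes were the nearest to 2 and 37. A nearest gene is a matter of position, and which gene a region acts on was not tested. Of 71 deserts beside a blood list gene, 44 held a shared desert region, 62.0% (49.7 to 73.2), against 355 of the 1449 deserts beside no blood list gene, 24.5% (22.3 to 26.8). Deserts beside only genes of the neuron, liver, muscle and patterning lists held one in 18 of 64, 28.1% (17.6 to 40.8). Per Mb, the deserts beside blood list genes had 6.13 shared desert regions, against 1.49 in those without, but regions with 1 to 3 factors were also denser there, at 39.6 against 13.3 per Mb. The deserts beside blood list genes had a median of 229 kb beyond the limit, against 218 kb in those without.

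Regulators of blood stem cells, the largest of the blood lists, were nearest to the most shared desert regions, and Gata3 in it counts in the T cell list too. Of 47 genes in that list 16 were nearest to a shared desert region, with 75 of the 144 regions between them. Among the other shared regions the list was nearest to 150 of the 514 with a blood list gene nearest. Zeb2 had 13, at up to 1430 kb, Gata3, a T cell and innate lymphoid factor, had 9, and Id2, an inhibitor of basic helix-loop-helix proteins, had 8. The proto-oncogene Myc had 7 and the progenitor factor Sox4 had 7. Lmo4, a relative of Lmo2, and Mef2c, a factor of lymphoid and myeloid fate, had 6 each. Klf4, a monocyte factor that also stands in the granulocyte and monocyte list, had 5. Tcf4 and Zfp36l2 had 3 each, Klf6 and Satb1 had 2 each, and Bcl11a, Bcl6, Ets1 and Mycn had 1 each. As counts too small to compare, Id2 had Lmo2 and Spi1 in all 8 of its regions, Sox4 had Fli1 in all 7 and Tal1 in 6, and Lmo4 had Meis1 in 4 of 6 and Tal1 in 0. Over all shared desert regions Lmo2 was in 85.1%, Spi1 in 74.1%, Fli1 in 61.8%, Tal1 in 59.9% and Meis1 in 37.7%.

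Of the 13 assayed factors, 3 had their own gene nearest to a shared desert region. This list was nearest to 10 of the 1215 shared desert regions and to 85 of the 17488 other shared regions. Runx1 had 6 regions, between 101.8 and 365.4 kb away and with up to 9 factors, and a Runx1 peak in 2 of them. Meis1 had 3 regions at 126.4 to 390.4 kb, with a Meis1 peak in 2. Cebpb had 1 region at 103.5 kb, with Cebpa, Cebpb, Lmo2, Meis1 and Spi1. The interval between Runx1 and Setd4 held 11 shared desert regions and 5 desert regions with 10 or more factors in all.

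Signalling and survival genes followed, with 6 of 30 nearest to 30 of the 1215 shared desert regions. Among the 17488 other shared regions this list was nearest to 123. Jun had 9 regions, Bcl2l11, a pro-apoptotic gene, and Dusp6, a brake on ERK signalling, had 6 each, and Spry2, another inhibitor of that pathway, had 5. Ccnd2 and Tnfaip3 had 2 each. As counts too small to compare, all 6 regions of Dusp6 held Fli1, and Meis1 was in 0 of the 9 regions of Jun and in 3 of the 5 of Spry2. Over all shared desert regions Fli1 was in 61.8% and Meis1 in 37.7%. Of the 25 receptor and surface protein genes 4 were nearest to 12 regions, and the list was nearest to 51 of the other shared regions. The 4 were Cxcr4 with 5, the interleukin-3 receptor gene Il3ra with 3, and Itga4 and the stem cell factor receptor gene Kit with 2 each.

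Among lineage genes, the T cell list, with 2 of its 16 genes, was nearest to 16 of the 1215 shared desert regions. It was nearest to 16 of the 17488 other shared regions. The granulocyte and monocyte list was nearest to 9 and 37, and the erythroid list to 4 and 12. That of megakaryocytes, platelets, mast cells and basophils was nearest to 2 and 18. In the T cell list Gata3 had 9 regions and Tox 7. In the granulocyte and monocyte list Klf4 had 5 and Ly86 had 4, and in the erythroid list Car2 had 1. Foxo1 was the only one of 18 B cell genes, with 2 regions, and Kit the only one of 19 genes of megakaryocytes, platelets, mast cells and basophils. Lists of other tissues were not empty. Of the neuron genes Cdh8 was nearest to 4 regions, Pcdh9 to 3, and Cntnap2 and Grin2b to 1 each. Among 30 patterning genes 4 were nearest to 12 regions, with Zfp608 at 5, Bmp2 and Sox9 at 3 each and Tbx3 at 1. Apob, with 1 region, was the only liver gene, and no gene of the 20 for heart and skeletal muscle was nearest to one.

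Over all genes, 514 were nearest to at least 1 shared desert region. The most regions were nearest to Jarid2 with 14, then Pik3r1, a regulatory subunit of PI3 kinase, and Zeb2 with 13 each, and Cited2 with 11. The factor mix of regions in deserts beside blood list genes did not separate from that of the remaining shared desert regions, since the intervals overlapped for every one of the 13 factors. Regions with 7 to 9 factors were 33.2% (26.8 to 40.02) of the 208 regions beside blood list genes and 33.5% (30.6 to 36.5) of the remaining 1007.

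The desert above Myc is known in mice for enhancers that act over great distances in blood stem cells and leukaemia. In the interval of 1786 kb between Myc and Gsdmc, 10 shared desert regions lay between 162.0 and 1627 kb above Myc, and 4 desert regions with 10 or more factors lay there too, at up to 1668 kb. Of the 10 shared desert regions, Cebpa, Cebpb and Spi1 were each in 8, Lmo2 in 7, Fli1 in 5, Gfi1b in 4, and Meis1 and Tal1 in 3 each, while Erg and Lyl1 were in 1 each. In the interval between Bcl2l11 and Spdye4c, which holds the Morrbid promoter printed above, 8 shared desert regions lay between 110.4 and 283.1 kb above Bcl2l11, with Lmo2 in 7 and Gfi1b in 0. These counts are too small to compare. Among all 1215 shared desert regions Lmo2 was in 85.1%, Spi1 in 74.1%, Cebpb in 70.2%, Cebpa in 69.8%, Fli1 in 61.8% and Tal1 in 59.9%. Meis1 was in 37.7% of the 1215, Lyl1 in 34.5%, Erg in 23.4% and Gfi1b in 18.9%.

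Gene deserts are not free of transcripts. The midpoint of 287 shared desert regions, 23.6% (21.3 to 26.1), lay inside a lncRNA gene, against a background of 11.7% over all regions with 4 to 9 factors, most of which lie in or near coding genes. Like for like, it was 22.5% (21.1 to 23.9) of the other shared regions outside genes at 10 to 100 kb, with overlapping intervals, and 17.6% (16.9 to 18.4) of desert regions with 1 to 3 factors. A lncRNA promoter window was overlapped by 26 shared desert regions, 2.14% (1.40 to 3.12), against a background of 2.69% over all regions with 4 to 9 factors. It was 3.61% (3.02 to 4.27) at 10 to 100 kb and 0.869% (0.699 to 1.07) of desert regions with 1 to 3 factors. Shared desert regions thus lay at such promoters more often than desert regions with fewer factors. Of these 26 regions Lmo2 was in 25 and Spi1 in 24, and no factor separated from the remaining shared desert regions.

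Density varied among chromosomes. Chromosome 13 had 115 shared desert regions, at 3.43 per Mb of desert beyond the limit, and chromosome 10 had 96 at 2.83 per Mb. The lowest were chromosome 7, with 21 at 0.847 per Mb, and chromosome X, with 21 at 0.383 per Mb. Chromosome 13 carries the deserts of Jarid2 and Gadd45g, 2 of the 10 richest, so a few deserts weigh on such values.

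Peak lists differed in how much of them lay in deserts. Of all Gata2 peaks 16.8% lay there, of Meis1 peaks 14.8% and of Tal1 peaks 10.4%, but of Erg peaks 5.59% and of Runx1 peaks 4.96%. Of the 707 desert peaks of Lyl1 only 2 overlapped no other list, and of the 504 of Erg likewise 2, and 59.3% of those of Lyl1 and 56.3% of those of Erg were in shared desert regions. Of the 2038 Meis1 peaks in deserts 22.5% were in shared desert regions and 1121 (55.0%) overlapped no other list. Line order in the files, whose meaning is not stated, moved with this. Of Meis1 peaks in shared desert regions 73.8% stood in the first 50% of the lines of their file, as did 71.4% of those in other shared regions, but of Meis1 peaks in desert regions with 1 to 3 factors only 25.6% did. For Tal1 these shares were 58.6%, 59.9% and 6.63%. In every list the share was lower in desert regions with 1 to 3 factors than in shared desert regions. The part of line order in these results was not tested beyond the repeat with the first 50% of the lines, given under the dependence on processing.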

How the data were processed

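ChIP-seq peak lists of 13 transcription factors in Hoxb8-FL cells were analysed, 1 list per factor. The deposited files hold other values than counts or signal, namely peak positions as start and end in bp, so depth and the precision it gives are unknown. Bowtie2, MACS2 and bedtools on mm10 (GRCm38) are named per the submitters' processing notes, with versions, roles and thresholds not given in the sources used here. Per the labels' protocols, sonication took 7 min (30 s on, 30 s off) and libraries followed an Illumina TruSeq kit. The IgG library had no peak list here, and 3 mitochondrial lines were not used.

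Peaks touching or overlapping were merged and regions placed by their midpoint against 21631 protein-coding genes of a RefSeq table (GRCm38.p6), which lists no exons. Coordinates count from 1. Calls rest on exact (Clopper-Pearson) 95% intervals that do not overlap. Python 3.11.15 with pandas 2.3.3, numpy 2.4.6 and scipy 1.17.1 was used, and merging and placing were tested on simulated data. No genome was used, so the planned motif search in regions was replaced by RefSeq promoter windows. The region rule and gene lists were chosen with earlier results of these data known. Named genes are those beside the 10 deserts with the most regions, those beside the 10 smallest regions with 9 factors, and every list gene nearest to a region. Some genes taken by this naming are not reported here. Other genes and intervals, such as Myc to Gsdmc, were named after their values were seen. All list genes but 1 were found in the gene table. Alternatives changed the distance, factor number, genes, merging, lines, lists and the regions compared with.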

Additional observations from a re-analysis of the deposited data

How the results depend on the processing

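No paired analysis was possible because each factor has 1 library. Over 22 alternatives, Meis1 stayed higher in shared desert regions than in the regions compared with, by 12.4 to 26.5 percentage points, and Runx1 (-14.2 to -6.17) and Fli1 (-13.3 to -4.65) stayed lower. The intervals of Gfi1 always overlapped. Calls changed in 1 alternative each for Tal1, Erg and Gfi1b, in 3 each for Gata2 and Spi1, in 4 for Cebpa, in 5 for Lmo2, in 6 for Cebpb and in 9 for Lyl1.

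With a limit of 50 kb there were 2151 regions (11.5% of shared regions) and 271 deserts with 3 or more, and with 200 kb there were 553 (2.96%) and 76. When non-coding genes counted as genes there were 285 (1.52%) and 33, Lmo2 turned to -0.919 points, and a blood list gene was nearest to 2.46%, since a lncRNA gene is then often nearest. With only the first 50% of each file's lines there were 672 regions (7.28%) and 79 such deserts, with 3 factors called higher and 3 lower, where 5 and 5 were called with all lines. The Tal1 difference was then 6.83 points and that of Runx1 -6.47, against 11.6 and -13.1 with all lines. Against the regions at 10 to 100 kb, 1 factor was called higher and 3 lower, and Lyl1 turned to -1.09 points. With 5 to 9 factors, without the Fli1 list or without the Runx1 list, 3 were called higher. Without the Fli1 list 6.94% of shared regions lay in deserts. Leaving out each of 11 lists and the regions near antigen receptor segments was added after the data were seen. The causes were not tested. The planned motif alternatives were not run.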
